A study of Homo sapiens with 3 samples.

Results

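The names hsa-miR-720, hsa-miR-923_v12.0, hsa-miR-1260, hsa-miR-1274a, hsa-miR-1274b, hsa-miR-1280, hsa-miR-1308 and hsa-miR-1826 were examined as tRNA and rRNA fragments that carry miRNA names. They were 8 of the 851 human miRNA names on an Agilent human miRNA array. The group was chosen by the origin of the fragments and partly from measured values, since hsa-miR-923_v12.0 and hsa-miR-720 were picked because their signal did not follow the lower brightness of the miR-497 array. The differences of these names between the miR-497 array and the other arrays are therefore a description of the choice.

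The arrays measured RNA recovered with an antibody against Argonaute2 (Ago2) from Hep G2, an established human liver cancer cell line. The groups were non-treated cells and cells given a miR-195 or a miR-497 mimic, a synthetic duplex, at 5 nM with Lipofectamine RNAiMAX, and the immunoprecipitation took place 24 h later. Each group held 1 array, for which 10 ng of recovered RNA was labelled with Cy3, and the 3 arrays lay on the same slide. No mock-transfected cells and no input RNA were analysed here. Against non-treated cells, the mimic and the transfection cannot be told apart, and how strongly Ago2 retained a given RNA was not measured. In these bulk samples a change in the cells and a change in RNA per cell cannot be told apart either. With 1 array per group no difference below had a replicate check, and the spot SD printed beside a value covers technical error within an array.

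Ago2 binds one strand of a mature miRNA and is guided by it to target mRNAs. Canonical miRNAs are cut from hairpin precursors, whereas tRNA and rRNA are abundant structural RNAs of translation whose breakdown and processing give short pieces. When small RNAs were first sequenced in depth, some of these pieces were filed as miRNAs, and several such entries were later withdrawn. hsa-miR-720 corresponds to a piece of threonine tRNA, hsa-miR-1274a and hsa-miR-1274b to lysine tRNA, hsa-miR-1260 and hsa-miR-1280 to leucine tRNA, and hsa-miR-1308 to another tRNA. hsa-miR-923 corresponds to a piece of the long rRNA of the large ribosomal subunit, and hsa-miR-1826 to a short rRNA of the same subunit. These assignments are background knowledge and were not checked by sequence.

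One of the 8 names, hsa-miR-1260, matched an entry of the RefSeq annotation, where it is now called hsa-miR-1260a. Its gene MIR1260A lies on the plus strand with the mature sequence at chr14:77266231-77266248 (GRCh38.p14), within the span of the protein-coding gene NGB. Its mature sequence is shown beside those of 3 canonical miRNAs used as references, because the end of the molecule sets it apart from them. Capitals mark the seed, bases 2 to 8 from the 5′ end.
hsa-miR-1260a: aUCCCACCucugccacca
hsa-let-7a-5p: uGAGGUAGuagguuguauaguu
hsa-miR-16-5p: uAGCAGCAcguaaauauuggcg
hsa-miR-21-5p: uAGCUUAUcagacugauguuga
The hsa-miR-1260a sequence is 18 bases long, and the median of the 2370 mature entries in the RefSeq table is 22 bases. Of those entries, 5.49% are as short or shorter. It ends in CCA, the 3 bases that are added to the 3′ end of a mature tRNA, an ending shared by 45 entries or 1.90%. Its seed occurs in 2 entries, hsa-miR-1260a and hsa-miR-1260b. The match of these letters describes the sequence and does not assign the source of a signal.

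Signal is given as background-subtracted intensity in scanner units, averaged over the spots of a probe and summed over the probes of a name. Each fragment name had 2 probes, and some other names had 3 or 4. A probe was called well above background when the scanner software marked more than 50% of its used spots so, and a name when at least 1 of its probes was. On the non-treated, miR-195 and miR-497 arrays in this order, 167, 150 and 118 human names were well above background without the transfected miRNAs and their passenger strands. The miR-497 array was dimmer, with a 75th percentile of 263 units over the 183 probes detected on all arrays, compared with 827 units on the non-treated and 778 units on the miR-195 array. On a log2 scale this percentile differed from that of the non-treated array by -0.09 on the miR-195 and by -1.65 on the miR-497 array. Synthetic RNAs spiked in ahead of the labelling step differed by -0.44 and -0.53, and those spiked in ahead of hybridisation by -0.19 and -0.22. The part of RNA input, labelling and hybridisation in the dimness of the miR-497 array was not tested.

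hsa-miR-923_v12.0, from rRNA, was well above background on all 3 arrays. hsa-miR-720, from tRNA, was near the detection limit and passed it on the non-treated and miR-497 arrays. The other 6 names did not pass it on any array. The detected fragment names thus numbered 2, 1 and 2 of 8, while 19.7%, 17.7% and 13.9% of all human names were detected on the same arrays, and 79.9% of all human names were detected on none of them. With 8 names these counts do not set the group apart from other names.

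hsa-miR-923_v12.0 gave 287 units (spot SD 22.2) on the non-treated array, 476 units (spot SD 34.3) on the miR-195 array and 363 units (spot SD 35.2) on the miR-497 array. It was thus brighter on both transfected arrays than on the non-treated array before any scaling. Both of its probes were detected on every array. Its brighter probe gave 269, 449 and 343 units in the same order, with 8 of 8 spots well above background each time. Its dimmer probe gave 18.4, 27.3 and 19.96 units, with 4 of 7, 5 of 8 and 5 of 8 spots well above background. Both probes were in the same order over the arrays, and the brighter probe carried nearly all of the signal.

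hsa-miR-720 gave 18.0 units (spot SD 3.24) on the non-treated array, 20.9 units (spot SD 6.54) on the miR-195 array and 29.9 units (spot SD 2.38) on the miR-497 array. The non-treated and miR-195 values differed by less than the spot SD, and the miR-497 value was above both. Its signal came from 1 probe, which gave 18.3, 22.2 and 26.6 units, with 5 of 6, 4 of 8 and 6 of 6 spots well above background. Spots of this probe ranged from 13.5 to 21.5 units on the non-treated, from 14.5 to 30.005 on the miR-195 and from 24.5 to 28.9 on the miR-497 array. These are the spots left without outlier flags, 6 of 8 on the non-treated and 6 of 8 on the miR-497 array. The used spots of the non-treated and miR-497 arrays did not overlap, while those of the miR-195 array spanned both. Spots of an array are not replicates of a condition, and the name was picked for its signal on the miR-497 array. On the miR-195 array the share of marked spots did not exceed 50%, so hsa-miR-720 had only a bound there. The second probe of hsa-miR-720 gave -0.317, -1.23 and 3.36 units and was below that level on each array.

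The 6 remaining tRNA and rRNA names together had 0 spots well above background among 88 used spots on the non-treated, 82 on the miR-195 and 88 on the miR-497 array. Their summed signals ranged from -7.32 to 3.85 units, from -8.74 to 13.3 and from -6.53 to -1.79 in the same order. For comparison, 97.5% of negative control spots lay below 8.71, 7.95 and 10.5 units on these arrays. The lysine tRNA names had negative values on every array, with hsa-miR-1274a at -6.16, -7.18 and -4.74 units and hsa-miR-1274b at -7.32, -8.74 and -6.53 units. hsa-miR-1308 gave -4.98, -5.22 and -4.54 units. The rRNA name hsa-miR-1826 gave -6.88, -8.34 and -5.40 units, so that of the rRNA names only hsa-miR-923_v12.0 was detected. A signal at background does not show that these fragments were absent from the immunoprecipitates.

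Of the 6 undetected names, the leucine tRNA names had the widest range over the arrays. hsa-miR-1280 gave 3.85 units on the non-treated, 13.3 on the miR-195 and -1.79 on the miR-497 array. For hsa-miR-1260 the values were -0.918, 8.99 and -5.34 units in the same order. Both were highest on the miR-195 array, where 9 of the 82 spots of the 6 names, 11.0%, exceeded the 97.5% limit of the negative controls, and all 9 belonged to these names. No spot of the 6 names exceeded that limit on the other arrays. Among 671 other human names below background on all arrays, 7.60% had a change from the non-treated to the miR-195 array at least as large as the 9.49 units of hsa-miR-1280, and 7.004% one as large as the 9.91 units of hsa-miR-1260. The values stayed below the detection limit and give no fold.

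**Figure D1:**
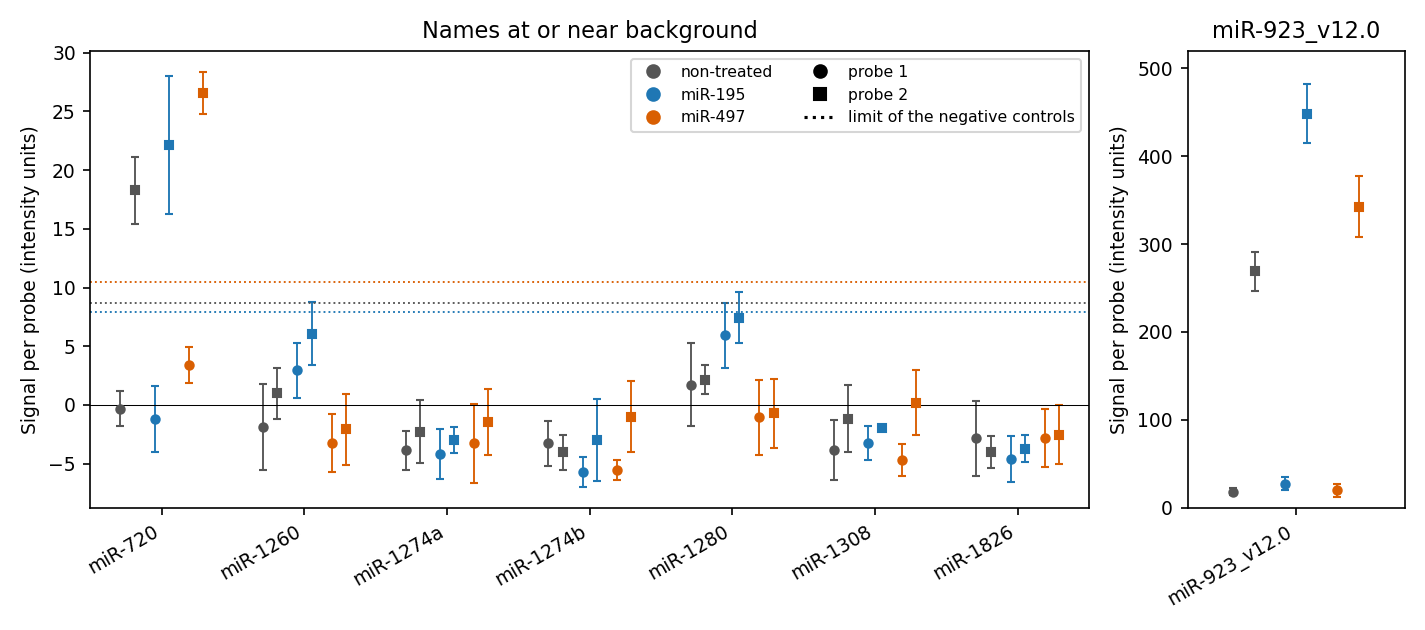
Mean signal per probe in intensity units for each fragment name on the non-treated (grey), miR-195 (blue) and miR-497 (orange) arrays, with hsa-miR-923_v12.0 on its own axis, probe 1 as circles and probe 2 as squares, bars for the SD between spots, and dotted lines at the 97.5th percentile of the negative control spots in the colour of the array. One probe of hsa-miR-720 stood above these lines at 18.3, 22.2 and 26.6 units, and no probe mean of the other 6 names on the left panel did.

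The canonical references that were detected had their lowest signal on the miR-497 array, unlike both detected fragment names. As the latter were picked for not following the lower brightness of that array, this contrast restates the choice. hsa-miR-21, an abundant miRNA of many cancers, gave 71328, 53636 and 37516 units on the non-treated, miR-195 and miR-497 arrays. hsa-miR-16, a widely expressed relative of miR-195, gave 5713, 6387 and 2278 units. hsa-let-7a, of the conserved let-7 family, gave 1799, 1718 and 610 units. All of these were lowest on the miR-497 array, whereas hsa-miR-720 was highest there and hsa-miR-923_v12.0 lay between its other values. hsa-miR-17, hsa-miR-19b and hsa-miR-92a, which are encoded in 1 cluster, gave 14978, 16778 and 4037 units on the non-treated array and 5708, 6990 and 1222 units on the miR-497 array. Of the 8 references, 7 were detected on all arrays. hsa-miR-122, the main miRNA of hepatocytes and known to be low in Hep G2, was not, at 3.62, -0.241 and 5.62 units. hsa-miR-192, another liver-enriched miRNA, was detected at 3003, 3478 and 1352 units.

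Names that derive from other structural small RNAs were also looked up. Of 10 names listed for vault RNA, small nucleolar RNA and small nuclear RNA, 7 were on the array, hsa-miR-886-3p, hsa-miR-886-5p, hsa-miR-664, hsa-miR-664*, hsa-miR-1201, hsa-miR-1248 and hsa-miR-1291. Of these, 0 were well above background on any of the arrays, a state shared by 79.9% of all human names, and their signals ranged from -21.1 to 11.49 units. The lowest value was a sum over the 4 probes of hsa-miR-886-5p.

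Before scaling, 147 human names were measured on both the miR-195 and the non-treated array, and 57 of them were brighter on the miR-195 array, 38.8%. hsa-miR-923_v12.0 was one of these, at a log2 difference of 0.73 compared with a median of -0.10 over all 147. On the miR-497 and the non-treated array 118 names were measured, and 2 were brighter on the miR-497 array, 1.69%. These were hsa-miR-720, at a log2 difference of 0.74, and hsa-miR-923_v12.0, at 0.34, while the median over all 118 was -1.62. This contrast was used to choose both names, and the count restates the choice. Between the miR-497 and miR-195 arrays hsa-miR-923_v12.0 was dimmer on the former, at -0.39, but less so than the median of -1.54 over 117 names.

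**Figure D2:**
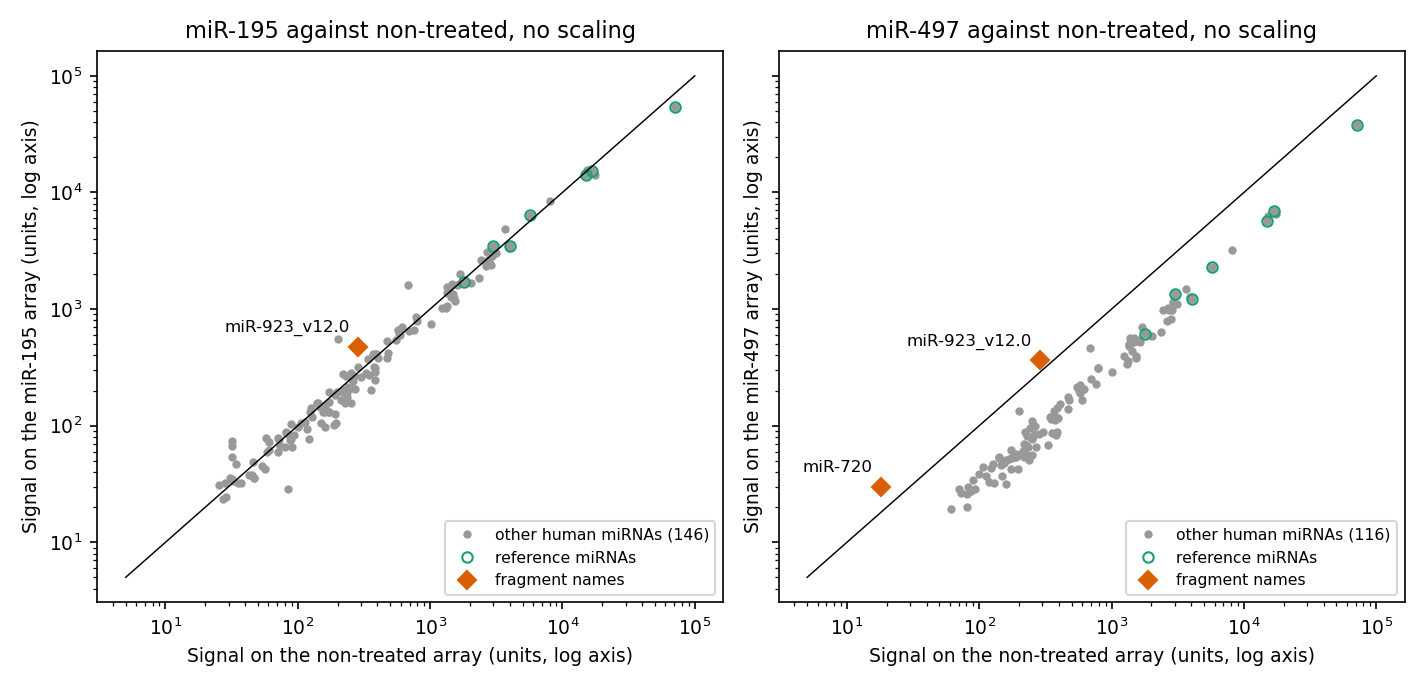
Signal of human names well above background on both arrays, without scaling, for the miR-195 (left) and miR-497 (right) arrays against the non-treated array, both axes logarithmic in intensity units, with the fragment names as orange diamonds, the canonical references as green rings and the line of equal signal in black. On the right panel hsa-miR-923_v12.0 and hsa-miR-720 lie above the line and the other 116 names below it.

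Names of similar brightness give the dimming at the level of the fragments. The 20 human names closest to hsa-miR-923_v12.0 on the non-treated array had a median of 259 units there, 246 units on the miR-195 array and 83.2 units on the miR-497 array. On the miR-497 array 20 of these 20 names were dimmer, and hsa-miR-923_v12.0 was brighter. The 20 names closest to hsa-miR-720 had a median of 24.0, 21.6 and 8.71 units in the same order. On the miR-497 array 20 of these 20 were dimmer and 0 were still well above background, while hsa-miR-720 was detected. On the miR-195 array 12 of them were dimmer, 6 were well above background and 7 had gained as many units as hsa-miR-720. Because the fragment names were picked for not following the dimming of the miR-497 array, their contrast with the neighbours there restates the choice. Neighbours were also taken from names detected on the non-treated array. Those of hsa-miR-720 lay near its detection limit, from 11.1 to 31.7 units.

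After division by the 75th percentile of each array, differences are relative to the bulk of detected miRNAs. In the miR-195 comparison hsa-miR-923_v12.0 was higher by 0.81 log2 units (spot SD 0.15), or 1.76-fold, rank 6 of 147 from the highest. It did not reach 2-fold, which 4 of the 147 names did, 2.72%, so 0 of the 1 fragment name measured passed that size. The call depended on the scaling, with a difference of 1.04 when the spiked-in RNAs set the scale and 0.28 when the 75th percentile was taken over all probes. The median over all names was -0.01 and the SD of the differences over names was 0.37. The names past 2-fold were hsa-miR-1225-5p at 1.54, hsa-miR-1202 at 1.33, hsa-miR-1915 at 1.32 and hsa-miR-638 at 1.14. The stated ground for picking the name was its signal on the miR-497 array. Members were chosen with earlier results of these data known, so whether the miR-195 comparison also entered the choice is not known. It shares the non-treated array with the miR-497 comparison. For hsa-miR-720 no fold is given here, because the bound for the miR-195 array, its lowest detected signal of 23.7 units, lay above the 18.0 units measured in non-treated cells.

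In the miR-497 comparison the 2 detected fragment names had the highest differences. This contrast was used to choose them, so their ranks restate the choice. hsa-miR-720 was higher by 2.39 log2 units (spot SD 0.28), or 5.24-fold, rank 1 of 118. hsa-miR-923_v12.0 was higher by 1.99 (spot SD 0.18), or 3.96-fold, rank 2 of 118. Across all names 4 of 118 were at least 2-fold higher, 3.39%, and the median was 0.03. Beside the fragment names these were hsa-miR-1202 at 1.09 and hsa-miR-1225-5p at 1.05. Both probes of hsa-miR-923_v12.0 gave similar values, 1.77 (spot SD 0.64) for the dimmer and 2.00 (spot SD 0.19) for the brighter, and the detected probe of hsa-miR-720 gave 2.19 (spot SD 0.25). The sizes rest on the scaling, since both names were less than 2-fold brighter in plain signal. Scaled by the mean of the labelling and hybridisation spike-ins instead, which lay -0.37 log2 units from the non-treated array, the differences were 1.11 for hsa-miR-720 and 0.71 for hsa-miR-923_v12.0.

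Between the arrays of transfected cells, hsa-miR-923_v12.0 was higher on the miR-497 array by 1.17 log2 units (spot SD 0.17), or 2.25-fold, rank 1 of 117. At least 2-fold was reached by 2 of the 117 names, 1.71%, with a median of 0.02. This direction belongs to the scaling, because the difference was -0.39 without scaling and -0.33 with spike-in scaling. hsa-miR-720 was measured on the miR-497 array alone, and its bound depended on the probes used. From its brighter probe alone it was higher by at least 1.83 log2 units, at least 3.55-fold, and from the sum of both probes, which adds a probe at background, the bound was 1.90. Without scaling the corresponding bounds were 0.26 and 0.34, and the spots of the brighter probe overlapped between these arrays. Since both fragment names were picked for their signal on the miR-497 array, the scaled differences and the rank here also restate the choice.

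**Figure D3:**
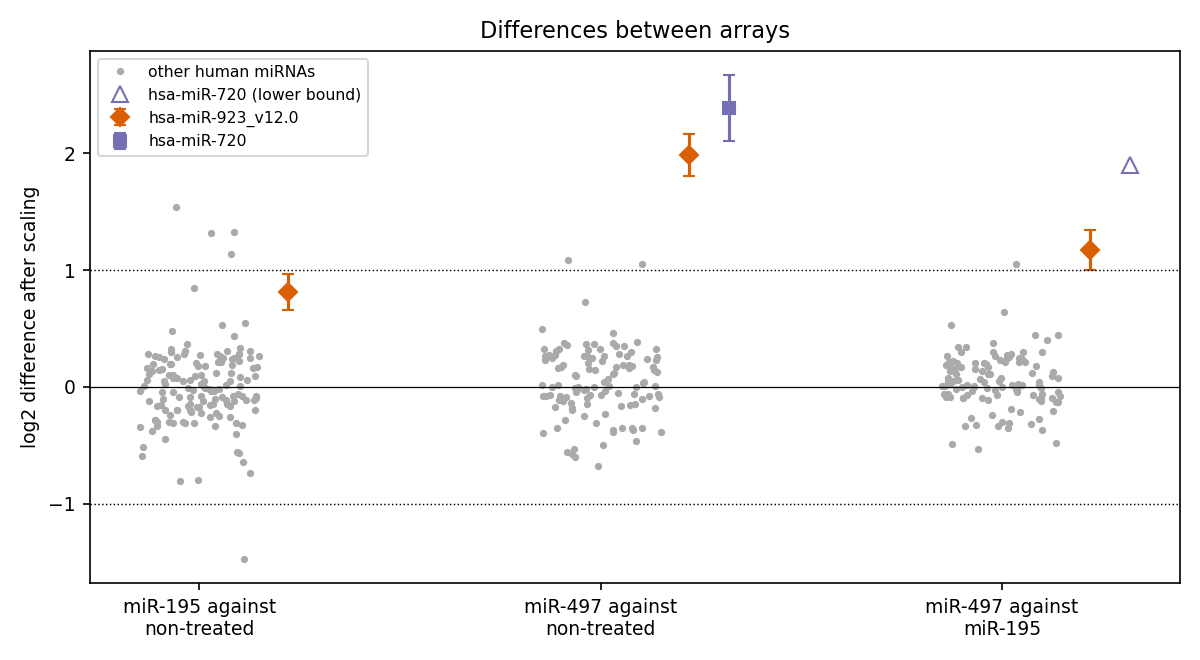
Log2 difference after scaling to the 75th percentile for each pair of arrays, with grey points for the other human miRNAs spread sideways for legibility, an orange diamond for hsa-miR-923_v12.0 and a purple square for hsa-miR-720 with bars for the spot SD, an open triangle for a lower bound, and dotted lines at 2-fold. hsa-miR-923_v12.0 stood at 0.81, 1.99 and 1.17, and hsa-miR-720 at 2.39 against non-treated, with a bound from both probes of 1.90 against miR-195.

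The name whose pair of scaled differences from the non-treated array lay closest to that of hsa-miR-720 was hsa-miR-923_v12.0, at a Euclidean distance of 0.65 log2 units among 117 names over 3 arrays. The next were hsa-miR-1202 at 1.65, hsa-miR-21 at 1.78, hsa-miR-1225-5p at 1.82 and hsa-miR-192 at 1.89. Since both of the first names were picked for their signal on the miR-497 array, their closeness restates the choice. The miR-195 value of hsa-miR-720 in this measure, 0.31, comes from a signal that was not well above background. In plain signal hsa-miR-1202 was dimmer on the miR-497 than on the non-treated array, at 463 compared with 684 units. The same held for hsa-miR-1225-5p, at 132 compared with 201 units. On the miR-195 array hsa-miR-1202 gave 1615 and hsa-miR-1225-5p 550 units, so there both were brighter than in non-treated cells, as hsa-miR-923_v12.0 was.

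Setting the detected fragment names against the summed signal of the human names detected on the same array, without the transfected miRNAs and their passenger strands, needs no scaling between arrays, although probes differ in how well they bind and the percentages are not molar amounts. Detected fragment names gave 0.128% of this sum on the non-treated array (spot SD 0.00939), 0.222% on the miR-195 array (spot SD 0.0160) and 0.399% on the miR-497 array (spot SD 0.0358). The percentages were lowest in non-treated cells. This spot SD covers the spots of the fragment names only, and neither the spread of the sum nor that between arrays. The fragment names detected were picked for their signal on the miR-497 array, so the height of the percentage there restates the choice. With the transfected strands kept in the sum they were 0.1279%, 0.181% and 0.368%. In the miR-195 comparison the percentage was 1.74 times that of non-treated cells, with the fragment signal at 1.56 times and the other human signal at 0.896 times the non-treated value. In the miR-497 comparison it was 3.12 times as high, with the fragment signal at 1.29 times and the other human signal at 0.411 times. The fragment signal held hsa-miR-923_v12.0 alone on the miR-195 array and also hsa-miR-720 on the others, so these sums differ in membership. The signal of hsa-miR-923_v12.0 by itself was 1.66 times the non-treated value on the miR-195 array and 1.26 times on the miR-497 array. On the miR-497 array the lower signal of the other miRNAs was the larger of these factors. hsa-miR-923_v12.0 alone gave 0.1204%, 0.222% and 0.368%. For scale, hsa-miR-21 gave 38.1% of the summed signal on the miR-497 array.

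The normalized values that the authors deposited gave another picture for hsa-miR-720. They equal the software total per miRNA on a log2 scale, and for hsa-miR-720 they were 7.67, 6.93 and 6.72 on the non-treated, miR-195 and miR-497 arrays. The deposited order is thus the reverse of the order of its own spots. The totals behind these values were 203, 122 and 106 units, of which the significant probe of hsa-miR-720 gave 9.49, 11.4 and 14.1 units, or 4.67%, 9.38% and 13.3%. A probe counts as significant here when its total exceeds 3 times its error. On the non-treated array the rest equalled the total of hsa-miR-7-1*, the preceding detected name in alphabetical order, which held 8.999 units of its own and 185 units of hsa-miR-7. On the miR-195 array the parts were 7.11 units of hsa-miR-7-1* and 103 units of hsa-miR-7. On the miR-497 array they were 42.7 units of hsa-miR-7 and 49.0 units of hsa-miR-660. The deposited value of hsa-miR-720 therefore held mostly the signal of canonical miRNAs.

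**Figure D4:**
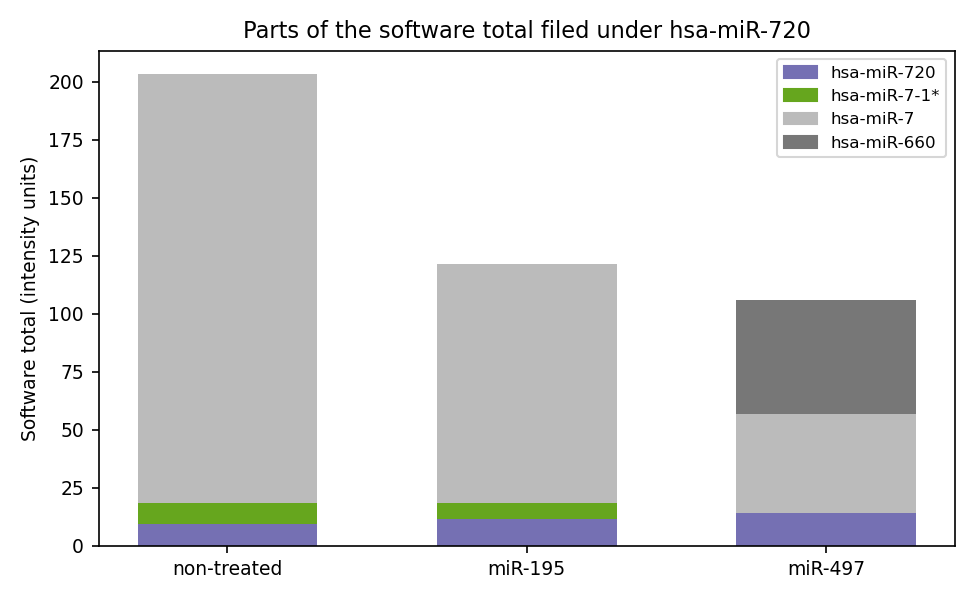
Parts of the software total filed under hsa-miR-720 on each array, in intensity units from 0, stacked by the name whose significant probes gave them. The part from hsa-miR-720 itself was 9.49, 11.4 and 14.1 units of totals of 203, 122 and 106 units.

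From the deposited values the log2 difference of hsa-miR-720 was -0.74 for miR-195 against non-treated, -0.94 for miR-497 against non-treated and -0.20 between the transfected arrays. From its own probe total it was 0.26, 0.57 and 0.31. For hsa-miR-923_v12.0 the total held no carried part, and the deposited differences of 0.71, 0.37 and -0.35 followed the plain signal. The other 6 fragment names stood at 0 on every array in the deposited table.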

How the data were processed

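Small RNA in Ago2 immunoprecipitates was measured on 1 array for each of 3 groups, taken from the labels. Spot intensity in the deposited scanner files was background-subtracted within each array by Agilent Feature Extraction 10.7.1.1 (submitters' processing notes), with no scaling between arrays. The authors also deposited log2 values from GeneSpring GX 11.5.1, used as an alternative. Control spots and outlier-flagged spots were left out, spots were averaged per probe, and probes were summed per name. Signals were divided by the 75th percentile over the 183 probes well above background on all arrays. A name not well above background on 1 array was set to a bound, its own signal or the lowest detected signal if that was higher, and no fold where that bound lay above the measured signal of the other array. A name below background on both arrays got no value. Differences of at least 2-fold were counted over human names without the transfected miRNAs and their passenger strands. Depth does not apply to arrays, and their number limits the precision. No test between groups was possible, and slide and scan were shared by all arrays.

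Named were all 8 members, 8 canonical references, 7 names from other small RNAs and the 5 names closest to hsa-miR-720 in pattern. Members and lists were chosen with earlier results of these data known. The calculation used Python 3.11.15, numpy 2.4.6, pandas 2.3.3 and, for normexp with an offset of 50, limma 3.58.1. It was tested on simulated data. Alternatives covered scaling, background, probe summary, detection, threshold and the deposited values.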

Additional observations from a re-analysis of the deposited data

How the results depend on the processing

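With 1 array per group the values have no replicate check, and the causes of the shifts below were not tested. Weak signals such as that of hsa-miR-720 lay near the detection limit. No paired analysis was possible because each group held 1 array. Over all alternatives 170 values stayed within the spot SD (counts within 1.5 times), 61 moved and 5 reversed. The bound of hsa-miR-720 between the transfected arrays has no spot SD, so this rule does not define its labels. Some of the 170 could not move, since leaving out an undetected member does not change the percentage. The count of members at least 2-fold lower was 0 under every alternative. The tally is therefore not a measure of how stable the differences were. The percentile over probes detected on both arrays of a comparison and the sum with transfected strands kept were added after the data were seen.

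hsa-miR-923_v12.0 in miR-195 against non-treated (0.81) was 0.28 when the percentile covered every probe (all probes), 1.04 under spike-in scaling, 0.57 with quantile normalization, 0.61 with normexp and 0.57 with probes detected on both arrays. With spike-ins or at 1.5-fold 1 member counted as higher. In miR-497 against non-treated, hsa-miR-720 (2.39) was 1.01 with all probes, 0.74 unscaled, 1.11 with spike-ins, 2.10 with quantile, 1.54 with normexp, 0.35 with the software total and reversed to -0.94 in the deposited table. hsa-miR-923_v12.0 (1.99) was 0.60, 0.34 and 0.71 with the first 3 of these, 1.66 with normexp, 1.66 with the software total and 0.37 in the deposited table. Here and below, the software total and deposited value of hsa-miR-720 held mostly the signal of other miRNAs. Its own probe total gave 0.57 without scaling in this comparison, so the reversal was not one of its own probe. The 2 members at least 2-fold higher became 1 with all probes, spike-ins, the software total or every spot required, and 0 unscaled or in the deposited table.

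Between the transfected arrays, hsa-miR-720 (bound from both probes 1.90, from the brighter probe 1.83) was 1.06 with all probes, 0.34 unscaled, 0.40 with spike-ins, 1.39 with normexp, 1.0998 with the software total and reversed to -0.20 in the deposited table. hsa-miR-923_v12.0 (1.17) was 0.33 with all probes and 0.95 with the software total, and reversed to -0.39 unscaled, -0.33 with spike-ins and -0.35 in the deposited table. The count of 1 member became 0 with all probes, unscaled, with spike-ins and in the deposited table, and 2 with bounds.

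The percentage from fragment names (0.128, 0.222 and 0.399) was 0.214, 0.258 and 0.557 with normexp and 0.164, 0.281 and 0.483 with the brightest probe. With the software total or deposited table it was 0.221, 0.263 and 0.355, but these values also count signal of other miRNAs. Of the total of hsa-miR-720, only 4.67%, 9.38% and 13.3% was its own. With the transfected strands kept it was 0.181 on the miR-195 array. Quantile normalization gave 0.202 on the miR-195 and 0.481 on the miR-497 array. Without hsa-miR-923_v12.0 it was 0.00753, 0 and 0.0304, so this name carried it. The summed signal of the detected fragment names was 82.2%, 151% and 343% of the median over other names detected on all arrays. Over all names detected on each array, without the transfected strands, the median was 201, 204 and 114 units. hsa-miR-923_v12.0 alone gave 1.43, 2.33 and 3.17 times that median. Detected members were 1 in place of 2 on the non-treated array with every spot required, and 2 in place of 1 on the miR-195 array with the software total or deposited table.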
